A study of Homo sapiens with 6 samples.

Results

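ATF4 and 3 genes of its stress response, TRIB3, DDIT4 and CHAC1, were examined in RNA-seq of cells of the established human line HT-29, from a colorectal cancer, after knockdown of OGT. The 4 genes were chosen by name from a table of 5681 genes, and each was present on a single row. The control cells carried a Scramble hairpin (n = 3 libraries, numbered 1 to 3; genotype given as WT) and the knockdown cells a hairpin against OGT (shOGT, n = 3 libraries, numbered 4 to 6; genotype given as OGT knock down). Both groups were the same line, so the comparison holds for 1 tumour line, and the labels do not say which OGT hairpin was used or whether the libraries of a group came from separate cultures. All p-values below therefore measure only the spread between these libraries, which may be technical.

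OGT is the enzyme that attaches O-linked N-acetylglucosamine to serine and threonine residues of nuclear and cytoplasmic proteins. ATF4 is a bZIP transcription factor of the integrated stress response. In that response, kinases that sense endoplasmic reticulum stress, lack of amino acids, lack of haem or double-stranded RNA phosphorylate the initiation factor eIF2, which slows translation in general while favouring translation of the ATF4 message. ATF4 then pairs with C/EBP and other bZIP proteins on C/EBP-ATF response elements and raises genes for amino acid uptake and synthesis, tRNA charging and stress effectors. Among the effectors, TRIB3 is a pseudokinase that binds AKT and also restrains ATF4 itself, DDIT4 (REDD1) inhibits mTORC1 through the TSC complex, and CHAC1 is an enzyme that degrades glutathione. Because ATF4 is controlled largely at translation and by protein turnover, its mRNA level is not a measure of its protein.

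All 4 members were lower in the knockdown. TRIB3 and DDIT4 fell the most and by nearly the same factor, CHAC1 fell by less, and ATF4 itself fell the least of the 4. Within each library, the 3 effectors were also lower relative to ATF4, a comparison that does not depend on how the libraries were scaled. A lower ratio without overlap between the groups was also found for 54.9% of all genes called lower by the rule given below.

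To show the upstream sequence of the members, the 250 bases before each RefSeq start (GRCh38.p14) were searched on both strands for the C/EBP-ATF response element (CARE, TGATGNAA), the cAMP response element (CRE, TGACGTCA) and the E-box (CACGTG). None of the 3 contains another. All 4 members were matched to the promoter table of 27305 genes. Among those genes the CARE letters were found in 3.89%, the CRE letters in 2.03% and the E-box letters in 7.73%. The 30 bases around each match are shown for CHAC1 and ATF4, with the matched letters in capitals, because the whole window of these genes lies in exons of longer transcripts of the same gene. For TRIB3 and DDIT4, which moved together and had no match, the longest stretch of the window outside their own exons is shown.
CHAC1: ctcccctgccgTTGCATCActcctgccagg
ATF4: ggaggagacggtCACGTGgtcgcggcggaa
TRIB3: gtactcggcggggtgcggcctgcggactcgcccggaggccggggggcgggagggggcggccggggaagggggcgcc
DDIT4: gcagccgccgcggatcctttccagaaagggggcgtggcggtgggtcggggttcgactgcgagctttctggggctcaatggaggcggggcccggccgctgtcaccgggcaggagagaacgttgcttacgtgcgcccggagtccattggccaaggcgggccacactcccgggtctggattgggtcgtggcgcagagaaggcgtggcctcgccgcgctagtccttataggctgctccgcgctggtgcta

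The CHAC1 stretch lies at chr15:40953251-40953280 on the + strand, and its capitals are the CARE letters read on the opposite strand, 209 to 202 bases before the start. The ATF4 stretch lies at chr22:39520465-39520494 on the + strand, with the E-box 82 to 77 bases before the first of 2 listed starts. The TRIB3 stretch covers 76 bases at chr20:381170-381245, and the DDIT4 stretch 246 bases at chr10:72273674-72273919, both on the + strand. Neither window held any of the 3 motifs, and that says only that those letters are absent from these windows. The windows differed in composition, with a GC content of 78.8% for the first TRIB3 start, 68.8% for DDIT4, 64.8% for CHAC1 and 58.4% for ATF4, beside a median of 58% over all windows. The 4 genes thus fell without a shared match to these letters near their starts.

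The values are normalized counts, that is, reads per gene divided by 1 size factor per library and not by gene length. OGT itself measured 9628, 11638 and 11620 normalized counts in libraries 1 to 3 and 484, 621 and 537 in libraries 4 to 6, so the knockdown libraries kept 4.99% of the control mean and matched their labels. The size factor was 1.09 to 1.13 for Scramble libraries and 0.879 to 0.950 for shOGT libraries. Listed genes took 4145921 to 4504303 reads per Scramble library and 3302558 to 3471647 per shOGT library, which leaves out all reads on other genes. The table held only genes past a 2-fold change and an adjusted p of 0.05 in the authors' own test, so nearly every gene in it differs by construction. Of the 12 colon epithelium markers, 4 were in the table and all were detected, LGALS4 and VIL1 being lower in shOGT and KRT19 and KRT20 higher. Their summed level was 9048 to 10922 normalized counts in Scramble and 18461 to 20450 in shOGT. Of the 10 markers of other cells, LYZ and PECAM1 were in the table and both were higher in shOGT, with a summed level of 7961 to 8669 in Scramble and 15828 to 17597 in shOGT, nearly all of it LYZ. No marker in the table was at 0 in every library, which the restriction to changed genes makes certain. Markers outside the table may or may not have been expressed. The part of these marker differences in the results below was not tested.

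The tests were made on log2(normalized count + 1) with limma's trend method over the 5671 genes that reached 1 in 3 or more libraries. Calls required that the change was over 2-fold and that the Benjamini-Hochberg adjusted p was under 0.05. Log2 fold changes are shOGT relative to Scramble, and the pseudocount makes those of low genes smaller than the change itself. All 4 members were called, as were 99.4% of the genes tested, and all 4 were lower, as were 47.2% of them. No member overlapped between the groups, which held for 99.5% of the genes tested. The calls therefore say little beyond the table's restriction, and the size of each change and its place among the members carry the result.

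**Figure D1:**
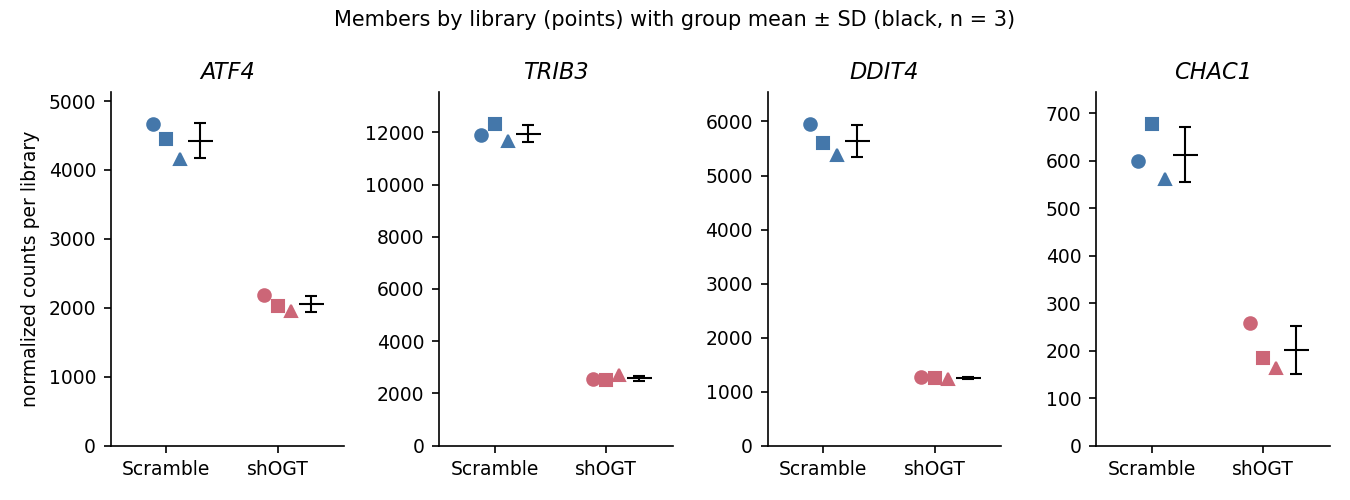
Normalized counts (vertical axis, starting at 0) of the 4 members in the 3 Scramble libraries (blue) and the 3 shOGT libraries (red), with the group mean ± SD in black. Every shOGT value lies below every Scramble value, and the gap is widest relative to the level for TRIB3 and DDIT4.

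ATF4 (ENSG00000128272) spans positions 39519695 to 39522685 on the + strand of chromosome 22 in GRCh38. It measured 4664, 4452 and 4158 normalized counts in Scramble and 2186, 2028 and 1960 in shOGT. Each group was tight and the groups lay far apart, at 4425 ± 254 against 2058 ± 116 (SD, n = 3 each), so that 46.5% of the control level was left. The log2 fold change was −1.10 (SE 0.08, limma adjusted p = 1.92e-08), a 2.15-fold lower level. The exact two-sided permutation test over the 6 libraries gave p = 0.1, the smallest that 3 against 3 libraries allow. Of the genes called lower, 2361 (88.2%) had a more negative fold change than ATF4, so its fall was among the smaller ones in the table. When the libraries were rescaled by their median of ratios to each gene's mean, the log2 fold change was −0.39 and no longer past 2-fold. Of the 75-base stretches of the longest ATF4 transcript, 10.1% also occur in the pseudogenes ATF4P3 and ATF4P4, neither of which is in the table. A small part of the ATF4 reads is thus uncertain in origin.

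TRIB3 (ENSG00000101255), the pseudokinase, spans positions 362835 to 397559 on the + strand of chromosome 20. The Scramble libraries held 11879, 12312 and 11658 normalized counts and the shOGT libraries 2542, 2515 and 2694. The 3 libraries of each group lay close together, at 11950 ± 333 and 2584 ± 96.7 normalized counts (SD, n = 3 each). The knockdown level was 21.6% of the control level, or 4.63-fold lower, with a log2 fold change of −2.21 (SE 0.08, limma adjusted p = 2.13e-11). With an exact two-sided permutation p of 0.1, the result was again at the limit of the design. Of the genes called lower, 529 (19.8%) fell by more. No 75-base stretch of its longest transcript occurs in another gene, and no other gene overlaps its exons.

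DDIT4 (ENSG00000168209), the mTORC1 inhibitor, spans positions 72273920 to 72276036 on the + strand of chromosome 10. It measured 5950, 5598 and 5372 normalized counts in Scramble and 1273, 1248 and 1237 in shOGT. Libraries 4 to 6 differed by very little, with a mean of 1253 ± 18.1 against 5640 ± 291 in Scramble (SD, n = 3 each). The 22.2% that was left amounts to a 4.50-fold lower level and a log2 fold change of −2.17 (SE 0.08, limma adjusted p = 2.93e-11). The exact two-sided permutation p was 0.1. The antisense gene DDIT4-AS1 covers 41.2% of the exon bases of DDIT4 on the opposite strand and is not in the table. Whether strand was used in counting is not given in the sources used here, so reads of the pair cannot be told apart.

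CHAC1 (ENSG00000128965), the glutathione-degrading enzyme, spans positions 40952962 to 40956519 on the + strand of chromosome 15. It was the lowest of the 4, with 599, 677 and 562 normalized counts in Scramble and 259, 184 and 163 in shOGT. Library 4 stood above the other shOGT libraries, and the coefficient of variation was 25.0% in shOGT against 9.55% in Scramble. The means of 613 ± 58.5 and 202 ± 50.5 (SD, n = 3 each) gave a 3.03-fold lower level, with 33.0% left. The log2 fold change was −1.62 (SE 0.16, limma adjusted p = 2.29e-07), and the exact two-sided permutation p was 0.1. Its fewest reads in a library were 143, for which counting alone gives an error of 8.36%, below the spread seen in shOGT. Leaving out library 4 moved the log2 fold change to −1.81. With the libraries rescaled in the way described for ATF4, it was −0.90, under 2-fold. In bulk RNA, a lower level in each cell and fewer cells with the transcript cannot be told apart, for CHAC1 and for the other members.

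Per kilobase of exon, the order of the 4 genes changed between the groups. The length used is all exon bases of a gene, 3434 for TRIB3 and 2514 for ATF4. Their longest transcripts have 2499 and 2019 bases, and the order of close genes depends on the length used. In Scramble, TRIB3 was highest at 3480 ± 96.9 normalized counts per kb, followed by DDIT4 at 2741 ± 142, ATF4 at 1760 ± 101 and CHAC1 at 298 ± 28.4 (SD, n = 3). No neighbours in that order overlapped. In shOGT, ATF4 came first at 819 ± 46.2 normalized counts per kb, then TRIB3 at 752 ± 28.1, DDIT4 at 609 ± 8.81 and CHAC1 at 98.1 ± 24.5 (SD, n = 3). ATF4 and TRIB3 did not differ beyond their spread there, since ATF4 read 870, 806 and 780 and TRIB3 740, 732 and 785 normalized counts per kb, with TRIB3 the higher in library 6. TRIB3 and DDIT4 had been well above their regulator in the control libraries and lay near or below it in the knockdown libraries.

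**Figure D2:**
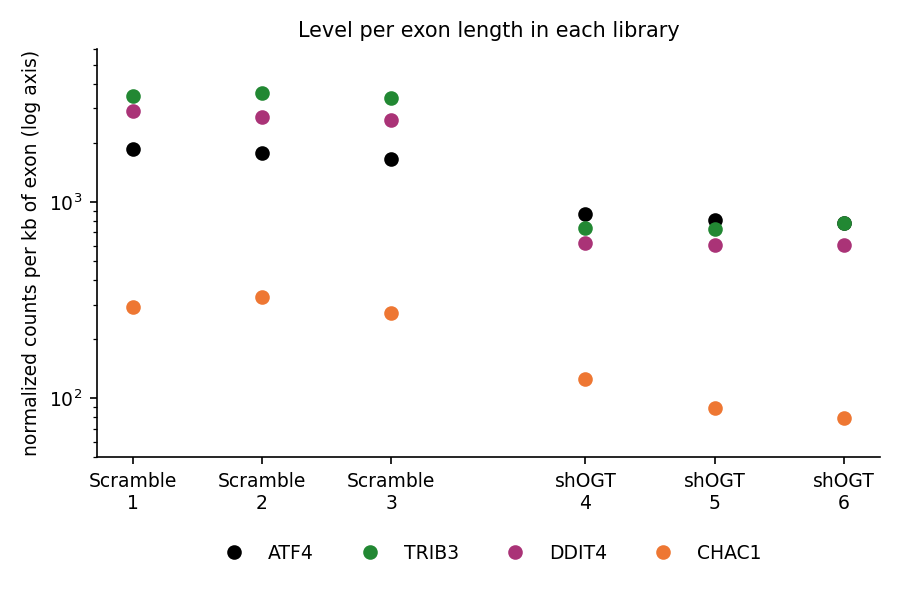
Normalized counts per kb of exon (vertical log axis) of the 4 members in each of the 6 libraries. TRIB3 and DDIT4 lie above ATF4 in the Scramble libraries, whereas in the shOGT libraries TRIB3 lies near ATF4, at 785 against 780 in library 6, and DDIT4 lies below both.

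To ask whether the effectors fell by more than ATF4, the ratio of each to ATF4 was taken within a library, where the scaling of the library cancels. The TRIB3 to ATF4 ratio of normalized counts was 2.55, 2.77 and 2.80 in Scramble and 1.16, 1.24 and 1.37 in shOGT. Its mean of 2.71 ± 0.138 in Scramble dropped to 1.26 ± 0.107 in shOGT (SD, n = 3 each), with a log2 difference of −1.11 (SE 0.08). For DDIT4, the ratio was 1.28, 1.26 and 1.29 in Scramble and 0.582, 0.615 and 0.631 in shOGT. These were the tightest ratios, with means of 1.27 ± 0.0173 and 0.610 ± 0.0251 (SD, n = 3 each) and a log2 difference of −1.07 (SE 0.04). The CHAC1 to ATF4 ratio was 0.128, 0.152 and 0.135 in Scramble and 0.118, 0.0909 and 0.0830 in shOGT. Its groups did not overlap but lay close, library 4 being nearest to Scramble, and the log2 difference was −0.52 (SE 0.17), ranging from −0.67 to −0.41 as libraries were left out. For each of these 3 ratios the exact two-sided permutation p was 0.1, also after adjustment over the 3, the smallest value possible. A ratio to ATF4 that was lower in shOGT without overlap was found for 25.9% of all genes tested, and a higher one for 52.7%. Among the genes called lower, 54.9% had a lower ratio and 0.3% a higher one. ATF4 lay near the 2-fold limit of the table, so a gene called lower could hardly have a higher ratio. The direction of the effectors' ratios therefore says little, whereas their size is not fixed by the table's restriction. Of the genes called lower, 19.8% had a more negative log2 fold change than TRIB3, 21.0% than DDIT4 and 46.2% than CHAC1.

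Between the effectors, the DDIT4 to TRIB3 ratio stayed within its spread. It was 0.501, 0.455 and 0.461 in Scramble and 0.501, 0.496 and 0.459 in shOGT, with a log2 difference of 0.04 (SE 0.06) and an exact two-sided permutation p of 0.7. CHAC1 rose relative to both, from 0.0512 ± 0.00344 to 0.0785 ± 0.0212 of TRIB3 and from 0.109 ± 0.0107 to 0.161 ± 0.0377 of DDIT4 (SD, n = 3 each), without overlap. For both, library 4 lay farthest from Scramble. Its CHAC1 to TRIB3 ratio was 0.102, against 0.0733 and 0.0604 in libraries 5 and 6 and at most 0.0550 in Scramble. The log2 differences were 0.58 (SE 0.23) and 0.54 (SE 0.20), each with an exact permutation p of 0.1. These 3 ratios were added after the values had been seen, and over all 6 pairs of members the adjusted exact p was 0.12 for 5 pairs and 0.7 for DDIT4 to TRIB3. TRIB3 and DDIT4 thus kept their proportion while ATF4 and CHAC1 each fell by less.

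**Figure D3:**
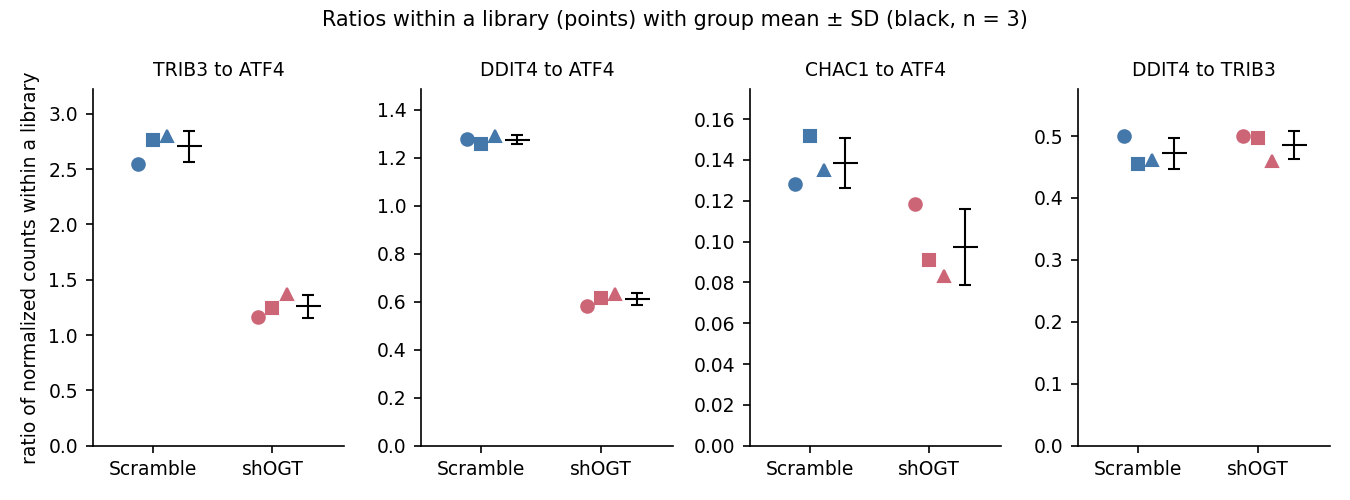
Ratios of normalized counts within a library (vertical axes from 0) for TRIB3, DDIT4 and CHAC1 to ATF4 and for DDIT4 to TRIB3, with points for the 3 libraries of each group and the mean ± SD in black. The 3 ratios to ATF4 are lower in every shOGT library, whereas DDIT4 to TRIB3 lies between 0.455 and 0.501 in both groups.

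The members kept their order under the other settings tried. Across pseudocounts, filters, edgeR and DESeq2 on the recovered reads and leaving out each library, the log2 fold change ranged from −2.24 to −2.19 for TRIB3, from −2.20 to −2.13 for DDIT4, from −1.81 to −1.48 for CHAC1 and from −1.15 to −1.07 for ATF4. Rescaling by the median of ratios was the exception, as it shifted the genes by a median of 0.71 on the log2 scale. TRIB3 was then at −1.49 and DDIT4 at −1.45, both still past 2-fold. Under that scaling the genes called lower numbered 1090 and those called higher 2980, against 2677 and 2959 with the deposited scaling, so 19.2% of the genes tested were lower. ATF4 and CHAC1 were no longer among them.

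**Figure D4:**
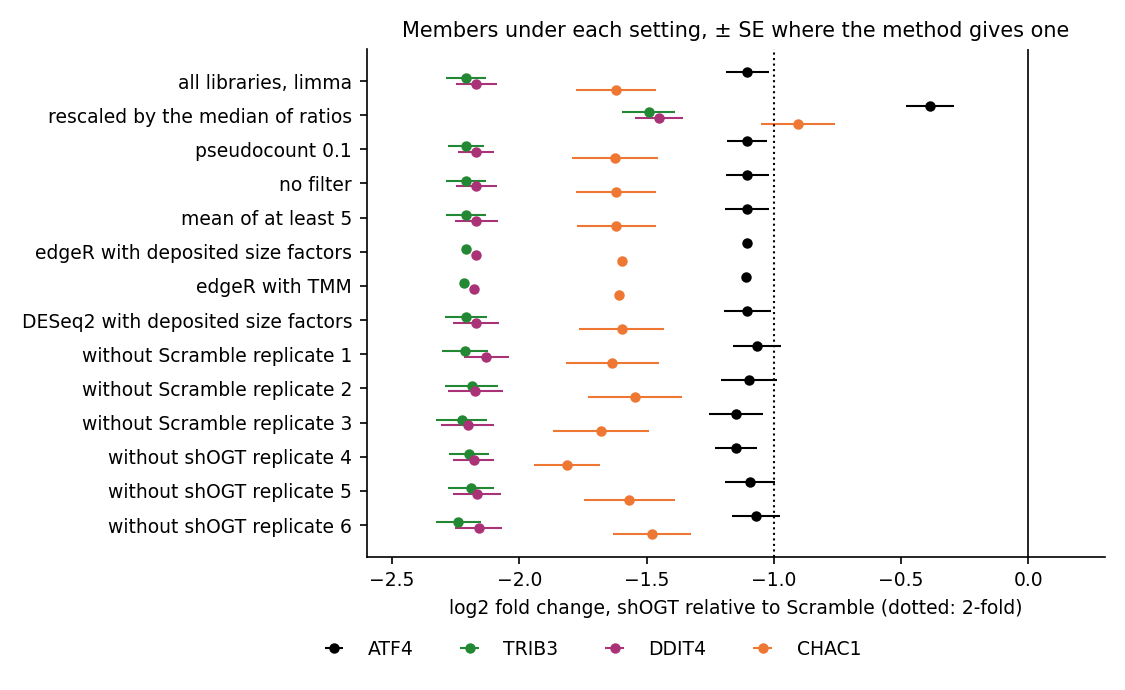
Log2 fold change of the 4 members, shOGT relative to Scramble (horizontal axis), under each setting (rows), with bars of ± SE where the method gives one. The dotted line marks 2-fold. Rescaling by the median of ratios moves all 4 to the right, with ATF4 at −0.39 and CHAC1 at −0.90, and the other settings leave each near its first value.

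The genes whose pattern over the 6 libraries was most like that of each member were found by the root mean square difference of their centred log2 values, among 4816 genes. For ATF4 these were TAZ (the tafazzin gene of that symbol, 0.03), AP3D1 (0.04) and ZNF76 (0.04). TRIB3 was closest to WASF2 (0.03), FOPNL (0.04) and NUCKS1 (0.06). DDIT4 was closest to CDC42EP4 (0.03), WASF2 (0.04) and MEN1 (0.04), so WASF2 was near both. CHAC1 had no neighbour as close, the nearest being POLB (0.08), UBTF (0.09) and PAQR4 (0.09). With 6 libraries in 2 groups, such likeness mostly reflects a similar fold change, and no other member was among the nearest 3 of any.

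Around the members, 12 lists of pathway genes held 220 distinct genes, of which 83 were in the table. Of these, 61 were lower and 22 higher after knockdown, beside 47.2% lower over all genes tested. Their median log2 fold change was −1.35, and that of all genes tested was 1.05. Since the table holds no change under 2-fold, such a median turns on which direction has more genes. The gap between these medians is therefore not a measure of distance. The genes tested include many outside the promoter table, and of the 3362 within it 1903 were called lower and 1446 higher. Against all genes tested, the lists therefore appear to lean lower by more than against those genes. After rescaling, 24 of the 83 were called lower, beside the 19.2% above. Genes of the lists outside the table were not analysed here, which included EIF2AK1, EIF2AK3, EIF2AK4, DDIT3, ATF3, ATF5, CEBPG, PPP1R15A, SESN2, TRIB1, TRIB2, CHAC2 and DDIT4L. Since the table holds only genes that changed, the counts below describe direction among such genes.

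**Figure D5:**
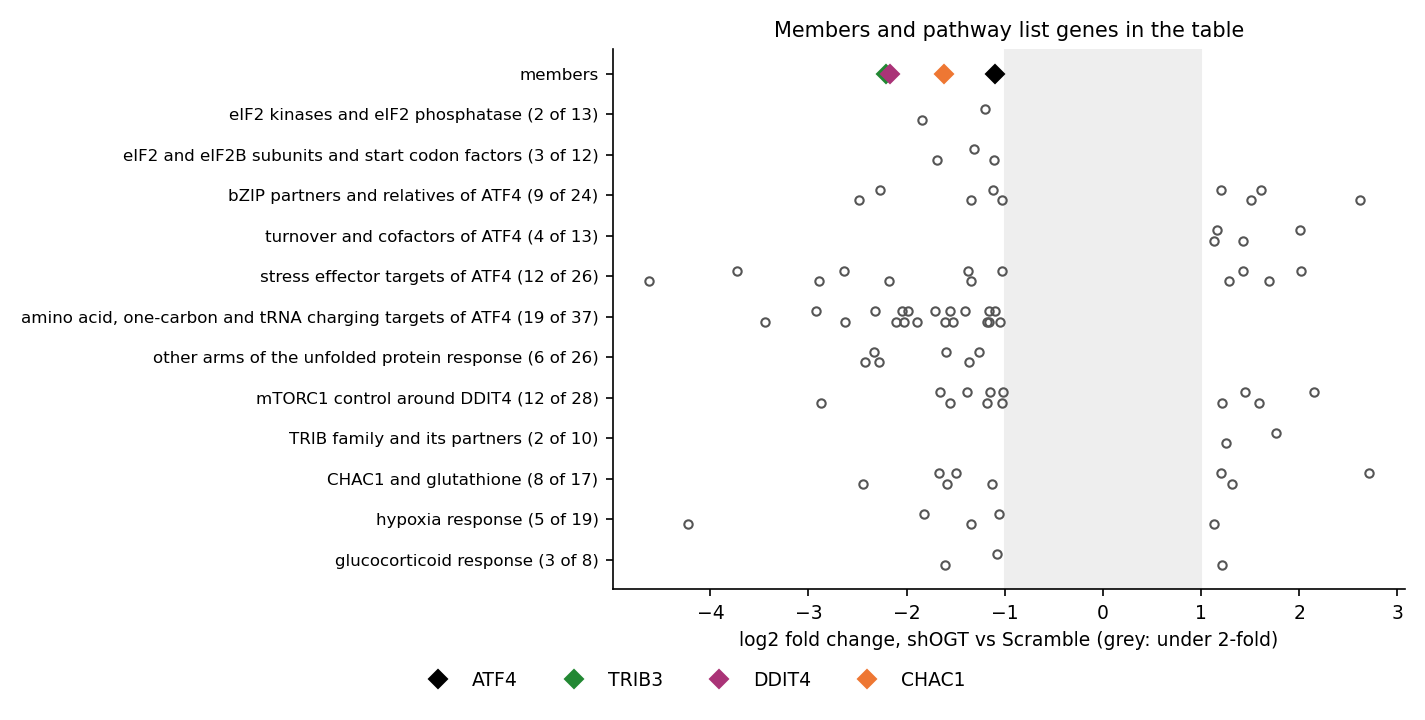
Log2 fold change, shOGT relative to Scramble (horizontal axis), of the 4 members (diamonds) and of each gene of the 12 pathway lists that was in the table (open circles, 1 row per list, with the number in the table of the number annotated). The amino acid, one-carbon and tRNA charging targets lie wholly on the lower side, and the turnover genes of ATF4 wholly on the higher side. For FGF21, BATF and GGT5, with a group at or below 3 reads in every library, the point is the fitted value and no bound.

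Upstream of ATF4, 2 of 13 genes of the eIF2 kinases and phosphatase were in the table, and both were lower. DELE1, which relays mitochondrial stress to an eIF2 kinase, went from 1329 ± 22.7 to 371 ± 44.6 normalized counts (log2 fold change −1.85, SE 0.10). EIF2AK2, the kinase that senses double-stranded RNA, went from 2468 ± 241 to 1071 ± 73.3 (−1.20, SE 0.10). Of 12 eIF2 and eIF2B subunits and start codon factors, the 3 in the table were lower, at log2 fold changes of −1.69 for EIF2D, −1.31 for DENR and −1.11 for EIF2B2, a subunit of the exchange factor that recharges eIF2. After rescaling they were at −0.97, −0.59 and −0.39, none past 2-fold, and of the kinase list DELE1 alone was.

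Among the bZIP partners and relatives of ATF4, 9 of 24 were in the table, 5 lower and 4 higher. JUND fell from 2090 ± 118 to 377 ± 65.9 normalized counts (log2 fold change −2.48, SE 0.12) and ATF2 from 1369 ± 67.1 to 285 ± 34.4 (−2.27, SE 0.11). CEBPB, a partner of ATF4 on its response elements, fell from 8928 ± 340 to 4397 ± 586 (−1.03, SE 0.10), but was at −0.31 after rescaling, at −0.96 without library 5 and at −0.99 without library 6, all under 2-fold. FOSL1 rose to 1486 ± 162 from 520 ± 53.0 (1.51, SE 0.11) and FOSL2 to 4582 ± 129 from 1498 ± 144 (1.62, SE 0.09). The AP-1 family was thus split, since the subunits JUND and FOS (−1.12) fell whereas JUN (1.21), FOSL1 and FOSL2 rose, and that split held in sign under the rescaling for the named JUND, FOSL1 and FOSL2.

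Of 13 genes for turnover and cofactors of ATF4, 4 were in the table and all were higher. BTRC, the F-box protein that recognises phosphorylated ATF4 for degradation, rose from 284 ± 23.5 to 1147 ± 61.0 normalized counts (log2 fold change 2.01, SE 0.10). SKP1, which holds F-box proteins in their ubiquitin ligase, rose from 1400 ± 93.0 to 3780 ± 198 (1.43, SE 0.09). KAT2B, an acetyltransferase, was at 1.16 (SE 0.13). EGLN3, a prolyl hydroxylase, was at 1.13 (SE 0.17) and at 0.90 without library 2, under 2-fold.

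Among the stress effector targets of ATF4 beside the members, 12 of 26 annotated genes were in the table, 8 lower and 4 higher, with a median log2 fold change of −1.36. FGF21, a hormone released under stress, had 43, 33 and 27 reads in Scramble and 0, 1 and 0 in shOGT, and was at least 9.48-fold lower against a floor of 3 reads per library. That bound covers counting error only. NUPR1, a stress-induced chromatin protein, fell from 135 ± 34.8 to 9.08 ± 1.01 normalized counts (−3.73, SE 0.30), FAM129A from 1895 ± 118 to 255 ± 31.2 (−2.90, SE 0.11) and INHBE, an activin subunit, from 150 ± 12.7 to 23.2 ± 1.60 (−2.64, SE 0.23). The 4 that rose were MAP1LC3B and ATG5 of autophagy, VLDLR, a lipoprotein receptor, and PMAIP1, a pro-apoptotic BH3-only protein, at log2 fold changes of 1.29, 1.43, 1.69 and 2.02. After rescaling, 5 of the 12 were past 2-fold lower. A further BH3-only gene on the list, BBC3, fell by 1.38 on the log2 scale, so these cell death effectors moved in opposite directions.

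The amino acid, one-carbon and tRNA charging targets were the list with most genes in the table, 19 of 37, and all 19 were lower, with a median log2 fold change of −1.71. SLC43A1, a transporter of large neutral amino acids, fell from 1090 ± 34.4 to 99.5 ± 12.1 normalized counts (−3.45, SE 0.12). PCK2, the mitochondrial phosphoenolpyruvate carboxykinase, fell from 2307 ± 181 to 303 ± 29.7 (−2.93, SE 0.10), PYCR1 of proline synthesis from 2561 ± 334 to 416 ± 67.0 (−2.62, SE 0.13) and SLC6A9, a glycine transporter, from 525 ± 38.2 to 104 ± 12.6 (−2.33, SE 0.14). The leucine transporter gene SLC7A5 was at a log2 fold change of −2.10, and WARS, which charges tryptophan tRNA, at −1.71. The serine synthesis enzymes PHGDH and PSAT1 were at −1.09 and −1.16, close to ATF4 itself. None of the 19 rose with the deposited scaling, and after rescaling 9 of the 19 were still past 2-fold lower, with a list median of −0.99.

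Of 26 genes of the other arms of the unfolded protein response, 6 were in the table. All 6 were lower, beside 47.2% of all genes tested. The rest of the list was not analysed here, so these 6 do not describe the arms as a whole. XBP1, the factor spliced by IRE1, fell from 7578 ± 176 to 1416 ± 137 normalized counts (log2 fold change −2.42, SE 0.09), ATF6B from 1400 ± 161 to 277 ± 35.2 (−2.34, SE 0.12) and HYOU1, a chaperone of the endoplasmic reticulum, from 7008 ± 335 to 1450 ± 173 (−2.28, SE 0.10). CRELD2 was at −1.59 (SE 0.18). After rescaling, 3 of the 6 were past 2-fold lower. XBP1, ATF6B and HYOU1 each had a slightly more negative log2 fold change than TRIB3.

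Of the genes of mTORC1 control, the pathway that DDIT4 inhibits, 12 of 28 were in the table, 8 lower and 4 higher. EIF4EBP1, a translational repressor that mTORC1 inactivates and a known ATF4 target, fell from 792 ± 113 to 107 ± 15.3 normalized counts (log2 fold change −2.87, SE 0.15). NPRL2, a subunit of the GATOR1 complex that restrains mTORC1, fell from 243 ± 4.12 to 77.1 ± 14.7 (−1.66, SE 0.18). SESN3, a sestrin, rose from 586 ± 15.5 to 1787 ± 279 (1.60, SE 0.11), and RRAGC, a Rag GTPase that recruits mTORC1 to lysosomes, from 236 ± 25.2 to 1055 ± 114 (2.15, SE 0.12). After rescaling, 1 of the 12 was past 2-fold lower.

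For TRIB3, MAP2K4, a kinase above JNK on the list of the TRIB family and its partners, rose from 444 ± 27.4 to 1059 ± 53.9 normalized counts (log2 fold change 1.25, SE 0.10). For CHAC1, 8 of 17 genes on a list of glutathione turnover and NOTCH1 were in the table, 5 lower and 3 higher, and after rescaling 1 was past 2-fold lower. GGCT, which acts on gamma-glutamyl dipeptides, fell from 620 ± 10.5 to 197 ± 34.8 normalized counts (−1.67, SE 0.13), close to CHAC1. The gamma-glutamyltransferase genes GGT7 and GGT1 were at −2.45 (SE 0.41) and −1.59 (SE 0.19), GGT1 being uncertain because the genome holds close copies of it. NOTCH1, a receptor whose maturation CHAC1 blocks, was at −1.50 (SE 0.10). Those that rose were GCLM, the modifier subunit of the enzyme that starts glutathione synthesis (1.20), DPEP1 (1.31) and GGT5, which was at or below 1 read in every Scramble library and at least 2.85-fold higher against a floor of 3 reads per library.

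DDIT4 is also known as a target of hypoxia and of glucocorticoids. Of 19 hypoxia genes, 5 were in the table, 4 lower and 1 higher. CA9, a carbonic anhydrase, fell from 559 ± 140 to 28.8 ± 7.40 normalized counts (log2 fold change −4.23, SE 0.23), the kinase gene PFKFB4 was at −1.82 (SE 0.25), EPAS1, which encodes the factor HIF-2α, at −1.34 (SE 0.10), and EGLN3 rose as above. After rescaling, 2 of the 5 were past 2-fold lower. Of 8 glucocorticoid genes, FKBP5 (−1.61, SE 0.09) and KLF9 (−1.08, SE 0.18) were lower and DUSP1 (1.22, SE 0.13) was higher. KLF9 was at −0.99 without library 2, and after rescaling it was at −0.37 with a limma adjusted p of 0.065. None of the 3 was past 2-fold lower after rescaling.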

How the data were processed

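The authors deposited 1 table of signal values, which are read counts per gene divided by a size factor per library. All values (100%) were whole multiples of their library's step within a tolerance of 0.02, so reads were recovered. The deposited log2 fold changes and adjusted p-values of the authors served only to show the restriction of the table (absolute log2 of at least 1.00, adjusted p below 0.05), and the deposited exon lengths gave levels per kb. The submitters' processing notes name cutadapt 1.9, HISAT2 2.0.4, UMI-tools, StringTie 1.3.4d, DESeq2 and edgeR, with no role or order, and the mouse build mm8, whereas the positions of all 5681 genes were those of human GENCODE 29 (GRCh38). The labels describe oligo(dT) capture, dUTP and UMI adapters, and the paper names a different kit.

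limma 3.58.1 (R 4.3.3) was fitted with group as the only term. edgeR 4.0.16 and DESeq2 1.42.0 on recovered reads were alternatives, with rescaling, a pseudocount of 0.1, no filter, a mean of at least 5 and each library left out. The fits were tested on simulated data in which few genes changed. Nearly every gene of this table differs, so that test does not bear on the adjusted p-values given here. Single values were compared by the exact permutation test over 20 regroupings. Members, lists and tests were chosen with earlier results of these data known. Named were the members, OGT, the up to 4 largest changes of each pathway list with a mean of at least 10 normalized counts, preset regulators in the table, and the 3 genes most like each member. FOS, JUN, MAP1LC3B, ATG5, VLDLR, PMAIP1, BBC3, SLC7A5, WARS, PHGDH, PSAT1, GCLM, DPEP1, GGT5 and the cell markers lay outside that rule and were chosen after their values were seen. Other genes were not analysed here, and 1 listed gene is not reported here.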

Additional observations from a re-analysis of the deposited data

How the results depend on the processing

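No paired analysis was possible because the groups share no replicate number. No member, ratio to ATF4 or gene named by the rule above changed sign under any alternative tried, and the other 3 ratios between members had no alternatives. The genes chosen after their values were seen were not followed singly through these settings. Rescaling by the median of ratios left ATF4 at −0.39 and CHAC1 at −0.90 on the log2 scale, under 2-fold, reduced the genes called lower from 2677 to 1090 and the pathway list genes called lower from 61 to 24, and took 19 of 54 other named genes under 2-fold. That scaling did not set the middle gene of those tested to unchanged. This gene stood at a log2 fold change of 1.76 under it, against 1.05 with the deposited scaling. The TMM scaling of edgeR, by contrast, shifted the genes by a median of −0.0067. Which reference is right was not tested. The other settings left the members past 2-fold. As libraries were left out, the genes called ranged from 5029 to 5512, and CEBPB, EGLN3, KLF9 and AP3D1 (at −0.998 without library 6) each went under 2-fold once or more. CHAC1 rested on the fewest reads, 143 in its lowest library.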

Other observations

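The ratio to ATF4 was also taken for the other ATF4 targets on the lists, a comparison added after the data had been seen. Of 31 targets in the table, 18 (58.1%) had a lower ratio in every shOGT library than in any Scramble library, 4 (12.9%) a higher one, and 9 overlapped. Over all genes tested, 25.9% were lower and 52.7% higher in this sense, and among all genes called lower 54.9% were lower, beside 18 (66.7%) of the 27 targets called lower. The overlapping 9 were MTHFD2, BBC3, GDF15, MTHFD1L, LARS, PSAT1, PHGDH, CTH and CEBPB. Overlap does not show that a level moved with that of ATF4. The mean ratio of MTHFD2 was 1.52 in Scramble and 1.12 in shOGT, and that of PHGDH 0.506 and 0.509. Of the 27 targets called lower, 24 had a more negative log2 fold change than ATF4, 15 than CHAC1, 9 than DDIT4 and 8 than TRIB3. Among all genes called lower, the shares were 88.2% for ATF4, 46.2% for CHAC1, 21.0% for DDIT4 and 19.8% for TRIB3.

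The CARE letters were found in the window of 3 of the 17 listed targets called lower that were in the promoter table, in 6 of 20 listed targets outside the expression table, and in 2.31% of all genes called lower.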
